A study of Mus musculus with 12 samples.

Results

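Klf2 and 6 receptors that guide lymphocytes through lymphoid organs (S1pr1, Ccr7, Cxcr4, Cxcr5, Itga4 and Itgb7) were examined in sorted mouse B lymphoma cells. The 7 genes were chosen by name, with earlier results of these data known. Each was read by the 1 probe set (the group of oligonucleotides that report 1 transcript) whose annotation gives that symbol alone. They are 7 of the 18820 genes with such a probe set, and 6 of them are among the 12961 genes that passed a filter on dim signals and were tested. Total RNA was profiled on 12 arrays of the type Affymetrix Mouse Gene 1.1 ST. The cells were primary in vitro cultures from B lymphomas of l-MYC;B1-8f mice (C57BL/6J x BALB/c), in which MYC is a transgene and Cre can remove the B1-8 heavy chain. TAT-Cre, a recombinase that enters cells by itself, had been applied to the cultures to ablate the B cell receptor (BCR), the surface immunoglobulin that recognises antigen.

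Each of 3 tumours, numbered 2567, 2646 and 2676, gave 1 array in each of 4 groups, sorted after 4 days of mixed culture. In the first group BCR-negative cells had shared a culture with BCR-positive cells under CHIR99021, which blocks the kinase GSK3 (its dose is not stated). The second held BCR-independent cells, descendants of BCR-negative tumours after long culture, from a mixture of 1 clone per tumour (clones 8, 7 and 1 of tumours 2567, 2646 and 2676) and BCR-positive cells of that tumour. The third held untreated BCR-negative cells and the fourth untreated BCR-positive cells, both from mixtures of these 2 kinds. The design text states that BCR-negative cells were being counterselected when they were sorted and that the clones were not. For tumours 2646 and 2676, the untreated BCR-negative and BCR-positive titles close with an unexplained "(2)", and the other 8 arrays have no such mark. A group is thus 3 tumours, a clone is 1 line, and no array of treated BCR-positive cells was analysed here.

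Lymphocytes enter, cross and leave lymphoid organs by reading chemical gradients and by gripping vessel walls. CXCR4 follows CXCL12 toward bone marrow and stroma, CCR7 follows CCL19 and CCL21 into T cell zones, and CXCR5 follows CXCL13 into B cell follicles. S1PR1 senses sphingosine 1-phosphate and drives exit into blood and lymph, and the α4 integrin chain (Itga4) pairs with β1 to bind VCAM1 or with β7 (Itgb7) to bind MAdCAM1 on vessels of the gut. The zinc finger factor KLF2 maintains quiescence and trafficking in lymphocytes, and S1pr1 is one of its known targets. FOXO factors, which are held in check by PI3K and AKT signalling, promote Klf2 expression in lymphocytes.

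For 4 of the 7 genes (Klf2, Cxcr4, Itga4 and Itgb7) a promoter sequence was matched in a RefSeq table of build GRCm38.p6. Shown are the 250 bases before the start site of Klf2, the regulator of the set, and of Cxcr4, the receptor with the largest share of its spread between groups, both read 5′ to 3′ on the gene's strand. The Klf2 sequence lies at chr8:72318812-72319061 on the + strand, with 1 MEF2-type match (CTA, then 4 bases of any kind, then TAG, a pattern that reads the same on both strands) and the KLF-type matches (CCNCNCCC, searched on both strands, some overlapping each other) in capitals. The Cxcr4 sequence lies at chr1:128592300-128592549 on the - strand, with the KLF-type matches and the overlapping TATA box matches (TATAAA, both strands) in capitals.
Klf2: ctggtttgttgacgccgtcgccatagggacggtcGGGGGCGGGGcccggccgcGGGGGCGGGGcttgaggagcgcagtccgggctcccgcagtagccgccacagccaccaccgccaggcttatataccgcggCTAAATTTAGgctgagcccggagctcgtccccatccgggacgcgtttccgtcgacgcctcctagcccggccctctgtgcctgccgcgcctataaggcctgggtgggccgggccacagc
Cxcr4: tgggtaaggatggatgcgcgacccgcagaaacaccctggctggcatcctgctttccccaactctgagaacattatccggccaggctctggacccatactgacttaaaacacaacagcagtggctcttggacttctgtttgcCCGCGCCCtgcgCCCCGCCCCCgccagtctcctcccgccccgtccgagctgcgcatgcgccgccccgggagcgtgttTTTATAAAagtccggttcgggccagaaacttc

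The MEF2-type match in the Klf2 window begins 118 bases before the start, and such a match was found in 3.2% of 32851 promoter windows of this length. KLF-type matches numbered 4 for Klf2, 3 for Cxcr4, 4 for Itga4 and 2 for Itgb7, and 45.9% of all windows held at least 1. The FOXO core GTAAACA, held by 3.17% of windows, and the E-box CACGTG, held by 6.02%, had 0 matches in these 4 windows. A TATA box match was found in 12.4% of windows and, among these 4 genes, for Cxcr4 only. These matches are letters in a window, not measured binding.

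All signals are log2 values, and array medians lay between 3.32 and 3.44. The sort labels were checked with Ighv1-72, the V gene used by B1-8, which averaged 5.77 ± 0.73 in treated BCR-negative, 4.04 ± 0.28 in BCR-independent, 6.44 ± 0.57 in untreated BCR-negative and 9.62 ± 0.30 in BCR-positive cells (SD, n = 3 each). Of 8 B cell markers 7 had a single-gene probe set, and Cd79a (9.48 to 10.75), Cd79b, Pax5, Ebf1 and Cd22 lay above the array median on all 12 arrays. Blk (3.28 to 7.01) lay above it on 11, and the array where it did not was a BCR-independent one. Ms4a1, which encodes CD20, lay below the median on all 12, at 2.55 to 3.19. Of 8 T and NK cell markers with a probe set, Cd3e, Cd3d, Cd3g, Cd4 and Ncr1 were below the median on every array, while Cd8a (3.44 to 3.83) was above it on 12 arrays, Thy1 on 10 and Klrb1c on 3. Of 7 myeloid markers, Adgre1, Cd14, Lyz2 and S100a8 were below it on every array, Itgam (4.08 to 5.97) above it on 12, Csf1r on 2 and Mpo on 1. Of 5 plasma cell markers, Prdm1 and Jchain were below it on every array, and Sdc1 (5.32 to 6.25), Xbp1 (5.30 to 6.59) and Irf4 (6.07 to 8.91) above it on all 12. Of 6 stromal and endothelial markers, Pecam1 (4.84 to 7.40), Col1a1 (3.99 to 4.38) and Col1a2 (3.70 to 4.24) were above it on 12 arrays and Cdh5 on 11, and Pdgfrb and Kdr were below it on every array. Fits with limma had group and tumour as terms, and because the 6 comparisons share arrays they are not independent of each other. Levels of different probe sets are not compared with each other.

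Klf2 differed mainly by tumour (probe set 10572800). Its signals in tumours 2567, 2646 and 2676 were 5.66, 6.15 and 5.04 in treated BCR-negative cells, while the BCR-independent clones had 6.58, 5.77 and 5.11. They were 5.70, 6.70 and 5.09 in untreated BCR-negative cells and 5.80, 6.25 and 5.05 in BCR-positive cells. Tumour 2676 was lowest in every group and its 4 arrays lay within 0.0715 of each other, whereas the arrays of tumours 2567 and 2646 spread over 0.92 and 0.94. Tumours held 73.6% and groups 2.47% of the sum of squares of Klf2 over the 12 arrays, where the medians over all genes tested were 39.8% and 20.7%. Group means ran from 5.62 ± 0.55 in treated BCR-negative cells through 5.70 ± 0.61 in BCR-positive and 5.82 ± 0.74 in BCR-independent to 5.83 ± 0.81 in untreated BCR-negative cells (SD, n = 3 each). No neighbours in this order differed by more than these SDs, which include the spread between tumours. Within tumours 2567, 2646 and 2676, treated BCR-negative minus BCR-positive cells gave -0.14, -0.10 and -0.0093. BCR-independent minus BCR-positive cells gave 0.78, -0.49 and 0.062. The BCR-independent clones went opposite ways against untreated BCR-negative cells, at 0.88 in tumour 2567, -0.94 in tumour 2646 and 0.023 in tumour 2676.

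**Figure D1:**
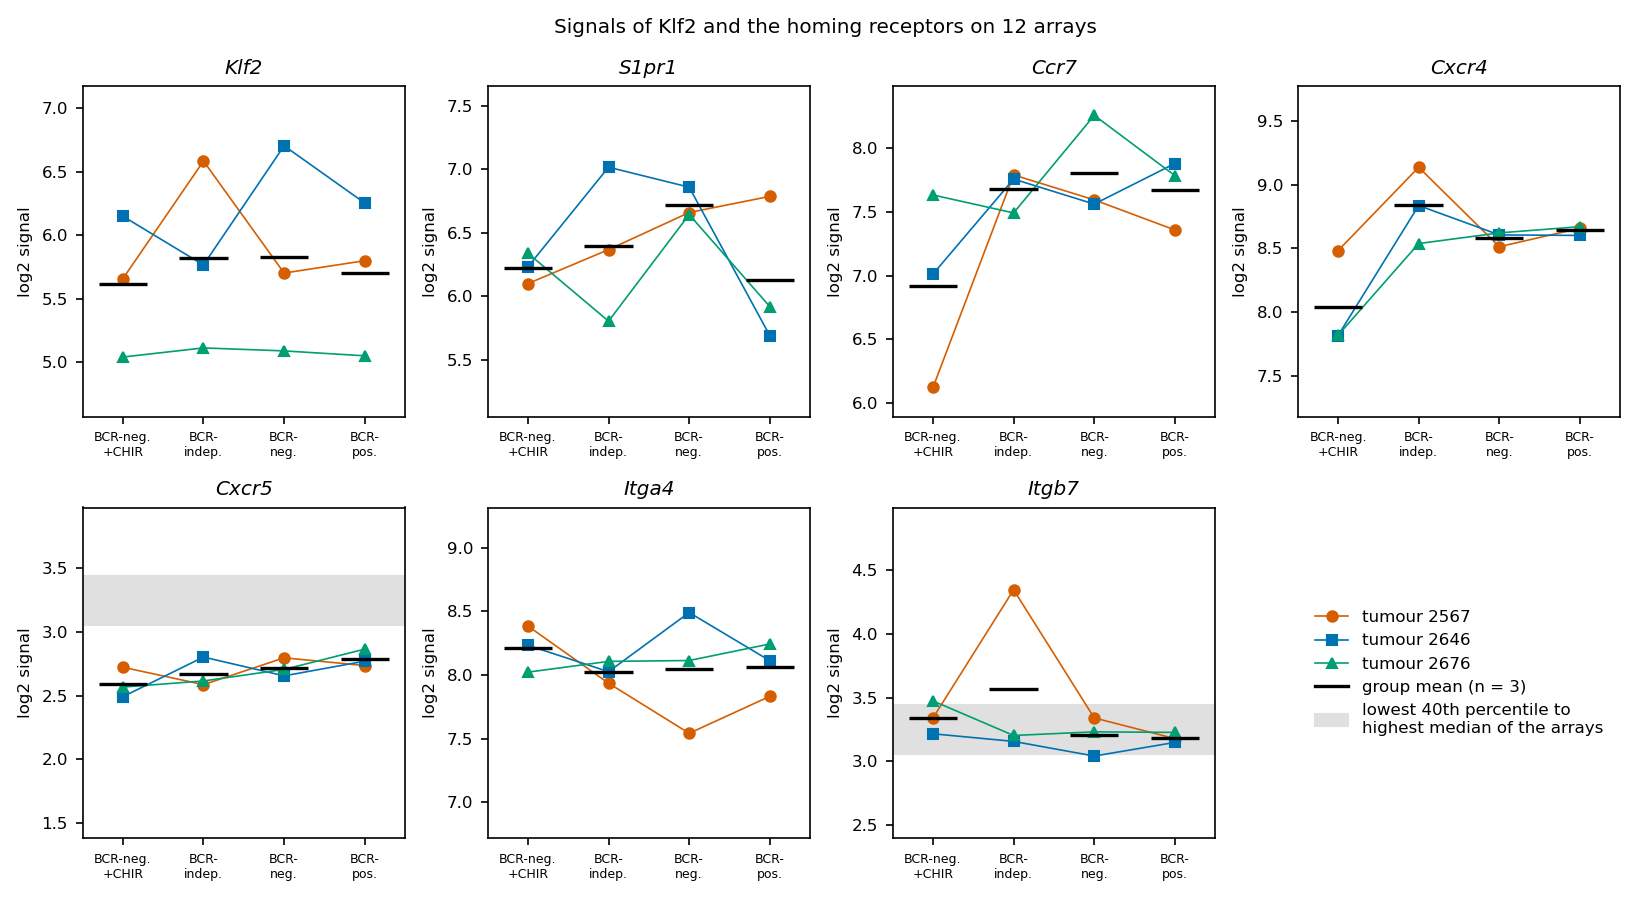
Log2 signal of each gene on the 12 arrays, 1 panel per gene, with treated BCR-negative, BCR-independent, untreated BCR-negative and BCR-positive cells from left to right, lines joining the arrays of 1 tumour and bars at group means (n = 3). Panels share a span of log2 units but not an origin. The grey band runs from the lowest 40th percentile to the highest median of the arrays, and Cxcr5 lies below it throughout, while Klf2 of tumour 2676 stays between 5.04 and 5.11.

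S1pr1, the egress receptor, read 6.10, 6.23 and 6.34 in treated BCR-negative cells of tumours 2567, 2646 and 2676 (probe set 10501586). BCR-independent clones read 6.37, 7.02 and 5.81, untreated BCR-negative cells 6.66, 6.86 and 6.64, and BCR-positive cells 6.79, 5.69 and 5.92. Both BCR-negative groups were even across tumours and did not overlap, with every untreated array above every treated one, while the clones and the BCR-positive cells spread by more than 1 log2 unit between tumours. The order of the means was untreated BCR-negative (6.72 ± 0.12), BCR-independent (6.40 ± 0.61), treated BCR-negative (6.22 ± 0.12) and BCR-positive cells (6.13 ± 0.58), with no pair called by the fit. Groups held 29.3% and tumours 10.7% of its sum of squares, and most of its spread lay in neither.

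Ccr7, the receptor for CCL19 and CCL21, read 6.12, 7.01 and 7.63 in treated BCR-negative cells, in the same order of tumours (probe set 10390763). BCR-independent cells read 7.79, 7.76 and 7.49, untreated BCR-negative cells 7.60, 7.56 and 8.26, and BCR-positive cells 7.36, 7.88 and 7.79. The treated array of tumour 2567 was the lowest of the 12, and the treated array of tumour 2676 lay among the untreated ones. The 3 untreated groups had means of 7.68 ± 0.16 (BCR-independent), 7.81 ± 0.39 (BCR-negative) and 7.68 ± 0.28 (BCR-positive), closer together than the arrays within a group, against 6.92 ± 0.76 in treated cells (SD, n = 3 each).

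Cxcr4, the receptor for CXCL12, read 8.48, 7.81 and 7.82 in treated BCR-negative cells (probe set 10357472). The BCR-independent clones read 9.14, 8.84 and 8.54, untreated BCR-negative cells 8.51, 8.61 and 8.62, and BCR-positive cells 8.66, 8.60 and 8.67. Untreated BCR-negative and BCR-positive cells varied little, with SDs of 0.0587 and 0.0367 around 8.58 and 8.64. Every treated array lay below every untreated one, but narrowly in tumour 2567, at 8.48 treated against 8.51 in untreated BCR-negative cells. The share of all genes with such a separation from all untreated arrays was not counted. Groups held 68.5% of the sum of squares of Cxcr4, the largest share among the 7 genes, and 19.5% remained outside groups and tumours.

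The follicle receptor Cxcr5 lay between 2.49 and 2.87 on the 12 arrays, at percentiles 8.32 to 29.0 of all probe sets, and exceeded the 40th percentile on 0 arrays (probe set 10592888). It was left untested, and the order of its values was not interpreted at so dim a level. Its group means were 2.59 ± 0.12 in treated BCR-negative, 2.67 ± 0.12 in BCR-independent, 2.72 ± 0.07 in untreated BCR-negative and 2.79 ± 0.07 in BCR-positive cells (SD, n = 3 each). A level at the low end of an array is not shown to be an absence of transcript.

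Itga4, the α4 integrin chain, was among the steadier genes, between 7.54 and 8.49 on the 12 arrays (probe set 10473125). It read 8.38, 8.23 and 8.02 in treated BCR-negative cells, 7.94, 8.03 and 8.11 in the clones, 7.54, 8.49 and 8.11 in untreated BCR-negative cells and 7.83, 8.11 and 8.24 in BCR-positive cells of tumours 2567, 2646 and 2676. The lowest and the highest array were both untreated BCR-negative ones, and all groups overlapped. A second probe set, annotated to Cerkl as well as Itga4, read 2.85 to 3.20 on the 12 arrays and was not used.

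Itgb7, the β7 integrin chain, was dim on all arrays but 1 (probe set 10432957). Clone 8 of tumour 2567 read 4.35, against 3.16 and 3.20 in the clones of tumours 2646 and 2676. The other groups lay between 3.22 and 3.47 (treated BCR-negative), 3.04 and 3.34 (untreated BCR-negative) and 3.15 and 3.23 (BCR-positive), near the array medians. In that clone Itgb7 was 1.01 above untreated BCR-negative cells and 1.17 above BCR-positive cells of its tumour, and it rests on this single array.

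**Figure D2:**
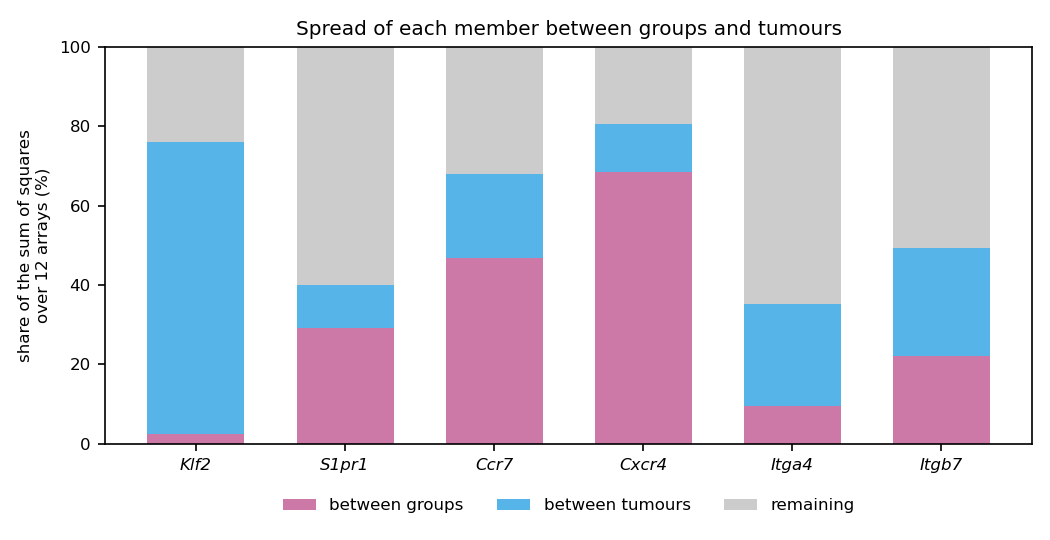
Share of the sum of squares over 12 arrays that lies between the 4 groups, between the 3 tumours and in neither, for the 6 genes tested. Groups hold 68.5% for Cxcr4 and 2.47% for Klf2, and tumours hold 73.6% for Klf2.

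The contrast of treated with untreated BCR-negative cells addresses the effect of a GSK3 inhibitor where the BCR is missing. Ccr7 and Cxcr4 had the lowest values relative to untreated cells, and S1pr1 was also lower in 3 of 3 tumours, but no gene of the set passed the test. Limma called 0 of the 6 tested members at an adjusted p under 0.05, where 1.91% of all 12961 genes were called, and 2 of 6 had an unadjusted p under 0.05, where 16.6% of all genes had one. Ccr7 changed by -0.88 (SE 0.28, adjusted p = 0.141), or to 0.542 of the untreated level, with -1.47, -0.55 and -0.63 in tumours 2567, 2646 and 2676, and by -0.59 without tumour 2567. Cxcr4 changed by -0.54 (SE 0.16, adjusted p = 0.127), with -0.031, -0.79 and -0.80 in the 3 tumours. Tumour 2567 is the tumour whose treated and untreated arrays are alike in carrying no title mark. With the mark as a term Cxcr4 changed by -0.14 and S1pr1 by -0.87. In this comparison the mark and a different response of tumour 2567 cannot be told apart.

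S1pr1 changed by -0.50 (SE 0.30, adjusted p = 0.481), with -0.56, -0.63 and -0.30 in the 3 tumours. Klf2 changed by -0.22 (95% interval -0.81 to 0.38), with -0.045, -0.55 and -0.048. Itga4 changed by 0.16 (-0.26 to 0.59), with 0.84 in tumour 2567 and -0.26 and -0.091 in the others, and Itgb7 by 0.14 (-0.37 to 0.64). Groups did not overlap for 2 of the 6 genes, S1pr1 and Cxcr4, both lower in treated cells, where 4.68% of all genes were lower without overlap. In 3 of 3 tumours 4 of the 6 were lower (Klf2, S1pr1, Ccr7 and Cxcr4), where 15.8% of all genes were. The median change of the 6 was -0.36 against 0.026 over all genes tested. Because the members were chosen with earlier results of these data known, these shares and medians are descriptions and not a test of the set. Whether fewer cells of a kind carried a transcript or each cell carried less cannot be told apart in sorted bulk samples. Marker signals were summed on the linear scale and given as log2, so bright genes such as Irf4 (up to 8.91) and Pecam1 (up to 7.40) weigh most. The sum of 5 plasma cell markers ran from 7.62 to 8.78 in treated and from 8.36 to 9.32 in untreated BCR-negative cells. That of 6 stromal and endothelial markers ran from 6.44 to 7.33 in treated and from 6.98 to 7.77 in untreated cells. The B cell sum ran from 11.07 to 11.61 in treated and from 11.25 to 12.03 in untreated cells. For myeloid markers the sum ran from 6.03 to 6.25 in treated and from 6.09 to 6.77 in untreated cells. The T and NK cell sum was not lower, at 6.17 to 6.20 in treated and 6.01 to 6.18 in untreated cells. The part of these markers in the changes was not tested.

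**Figure D3:**
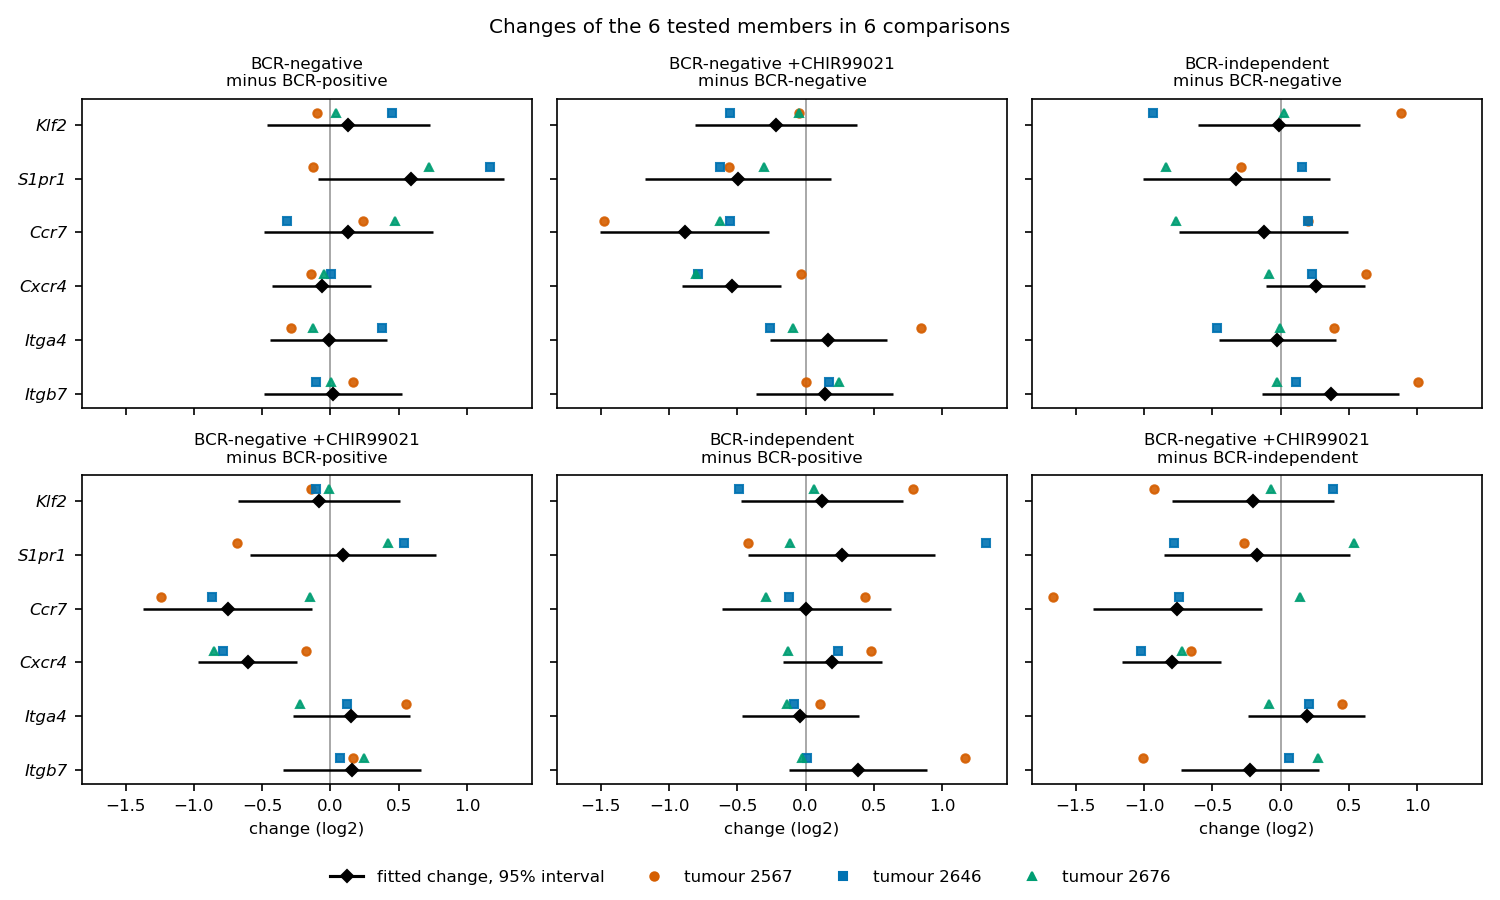
Log2 changes of the 6 tested genes in the 6 comparisons, with the group named first minus the second. Diamonds and bars give the fitted change and its 95% interval, and coloured points the change within each tumour. Intervals of Ccr7 and Cxcr4 lie below 0 in the 3 comparisons of treated cells, which share the treated arrays, and none of the changes passed the adjusted threshold.

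The same treated arrays were also set against BCR-positive cells, in which the receptor is intact. Cxcr4 was lower in treated BCR-negative cells in 3 of 3 tumours, with -0.18, -0.79 and -0.85, a fitted change of -0.61 (SE 0.16, adjusted p = 0.116). It was the 1 tested member whose groups did not overlap, where 4.51% of all genes were lower without overlap. Ccr7 differed by -0.75 (SE 0.28, adjusted p = 0.224), with -1.24, -0.87 and -0.15 in the 3 tumours. S1pr1 differed by 0.092 (95% interval -0.59 to 0.77), with -0.69 in tumour 2567 and 0.54 and 0.42 in tumours 2646 and 2676. Klf2 differed by -0.085 (-0.68 to 0.51), Itga4 by 0.15 (-0.28 to 0.58) and Itgb7 by 0.16 (-0.35 to 0.66). Limma called 0 of 6 members, where 0.802% of all genes were called, and 2 of 6 had an unadjusted p under 0.05, where 15.6% of all genes had one. With the title mark as a term the change of Cxcr4 was -0.21.

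Against BCR-independent clones, Cxcr4 of treated BCR-negative cells was lower without overlap, with -0.66, -1.02 and -0.72 in the 3 tumours, where 3.92% of all genes were lower without overlap. The fitted change of -0.80 (SE 0.16, adjusted p = 0.122), or 0.575 of the clones' level, ranked 72 among 12961 genes by p. None of the 6 arrays of these groups carries the title mark, and with the mark as a term in the fit of all 12 arrays the change stayed at -0.80 with an SE of 0.0983 and an adjusted p of 0.0316. Ccr7 differed by -0.76 (SE 0.28, adjusted p = 0.318), with -1.67 and -0.75 in tumours 2567 and 2646 and 0.14 in tumour 2676, and by -0.30 without tumour 2567. Klf2 differed by -0.20 (95% interval -0.80 to 0.39), S1pr1 by -0.17 (-0.85 to 0.51), Itga4 by 0.19 (-0.24 to 0.62) and Itgb7 by -0.23 (-0.73 to 0.28). Limma called 0 of 6 members, where 0.162% of all genes were called, and 2 of 6 had an unadjusted p under 0.05, where 12.3% of all genes had one.

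The comparison of untreated BCR-negative with BCR-positive cells asks what loss of the receptor changes. S1pr1 had the smallest p of the set, with a change of 0.59 (SE 0.30, adjusted p = 0.999) made of 1.17 and 0.72 in tumours 2646 and 2676 and -0.13 in tumour 2567. Without tumour 2646 it was 0.30 and without tumour 2567 0.95. Klf2 differed by 0.13 (95% interval -0.46 to 0.73), with -0.097, 0.45 and 0.039 in the 3 tumours. Ccr7 differed by 0.13 (-0.49 to 0.75), Cxcr4 by -0.063 (-0.43 to 0.30), Itga4 by -0.014 (-0.44 to 0.42) and Itgb7 by 0.020 (-0.48 to 0.52). The 2 groups overlapped for all 6 genes, where 4.51% of all genes did not overlap, and 0 of 6 moved one way in all 3 tumours, where 24.4% of all genes did. Limma called 0 of 6, where 0.00772% of all genes were called, and 0 had an unadjusted p under 0.05, where 3.19% of all genes had one.

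The contrast of BCR-independent clones with untreated BCR-negative cells sets clones that were not counterselected against cells that were. Cxcr4 differed by 0.26 (95% interval -0.10 to 0.62), with 0.62, 0.23 and -0.084 in the 3 tumours. With the title mark as a term it was 0.66 (SE 0.14, adjusted p = 0.187 by limma), and it was 0.074 without tumour 2567 and 0.43 without tumour 2676. Itgb7 differed by 0.36 (-0.14 to 0.87), with 1.01 in tumour 2567 and 0.12 and -0.029 in the others, and was 0.69 with the title mark and 0.043 without tumour 2567. S1pr1 differed by -0.32 (-1.01 to 0.36), Ccr7 by -0.12 (-0.74 to 0.49), Klf2 by -0.011 (-0.61 to 0.58) and Itga4 by -0.026 (-0.45 to 0.40). Limma called 0 of 6, where 0.00772% of all genes were called, and 0 had an unadjusted p under 0.05, where 5.99% had one.

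Set against BCR-positive cells, the clones differed by 0.38 for Itgb7 (95% interval -0.12 to 0.89), 0.26 for S1pr1 (-0.42 to 0.95) and 0.19 for Cxcr4 (-0.17 to 0.56). With the title mark Cxcr4 was 0.59 (adjusted p = 0.149 by limma) and Itgb7 0.71 (adjusted p = 0.359), and without tumour 2567 Cxcr4 was 0.051 and Itgb7 -0.0080. The S1pr1 value combined 1.32 in tumour 2646 with -0.42 and -0.11 in tumours 2567 and 2676. Klf2 differed by 0.12 (-0.47 to 0.71), Ccr7 by 0.0056 (-0.61 to 0.62) and Itga4 by -0.040 (-0.47 to 0.39). Limma called 0 of 6 members, where 0.0849% of all genes were called, and 0 had an unadjusted p under 0.05, where 9.61% of all genes had one.

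Other genes of homing were described from 4 lists, also chosen with earlier results of these data known. Of 36 further receptors and adhesion molecules 22 were tested, and among those left out as dim or without a single-gene probe set were Cd69, which draws S1PR1 from the cell surface, and the chemokine receptor Ccr6. Under CHIR99021 1 of the 22 was called, lower in treated cells, where 0.849% of all genes were called lower. Itga6, the α6 integrin chain of laminin receptors, fell by 1.11 on the log2 scale to 5.06 in treated cells, against 6.16 in untreated BCR-negative cells (SE 0.21, adjusted p = 0.0375), with -1.05, -1.21 and -1.07 in the 3 tumours. Its adjusted p lay between 0.0681 and 0.39 with any 1 tumour left out and was 0.224 with the title mark. Its change lay between -1.06 and -1.14 with a tumour left out and was -0.91 with the mark. The median change of the 22 was -0.026, 10 were higher and 12 lower, and 5 had an unadjusted p under 0.05, where 16.6% of all genes had one. Icam1, a ligand of LFA-1, was at 0.70 (adjusted p = 0.0536) and S1pr4, another sphingosine 1-phosphate receptor of blood cells, at -0.86 (adjusted p = 0.246). Between untreated BCR-negative and BCR-positive cells the S1pr4 difference was 0.66, positive in 3 of 3 tumours (adjusted p = 0.999).

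Of 25 KLF family members and regulators of Klf2, 24 were tested, and 2 were called under CHIR99021, both lower in treated cells, where 0.849% of all genes were called lower. An unadjusted p under 0.05 was found for 6 of the 24, where 16.6% of all genes had one. Foxo3, a FOXO factor, fell by 0.50 on the log2 scale to 5.40 in treated cells, against 5.89 in untreated BCR-negative cells (SE 0.0866, adjusted p = 0.0338), with -0.47, -0.59 and -0.42 in the 3 tumours. Hdac5, a class IIa histone deacetylase that binds MEF2 factors, fell by 0.82 to 6.49 in treated cells, against 7.31 (SE 0.14, adjusted p = 0.0317), with -0.87, -0.87 and -0.73. Neither passed with any 1 tumour left out (adjusted p of 0.123 to 0.39 for Foxo3 and 0.0887 to 0.35 for Hdac5) or with the title mark (0.168 and 0.171). The changes themselves lay between -0.45 and -0.53 for Foxo3 and between -0.80 and -0.87 for Hdac5 with a tumour left out, and were -0.47 and -0.71 with the mark. The other FOXO factors of the list, Foxo1 and Foxo4, were at -0.69 and -0.14 under CHIR99021 and were not called. The family member Klf9 was at -0.78 (adjusted p = 0.0681). The MEF2 factor Mef2c stood at 7.24 in BCR-independent and 8.02 in BCR-positive cells (change -0.78, adjusted p = 0.339). Its changes were -1.26, 0.099 and -1.18 in tumours 2567, 2646 and 2676. The list's median change under CHIR99021 was -0.058, with 9 higher and 15 lower.

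**Figure D4:**
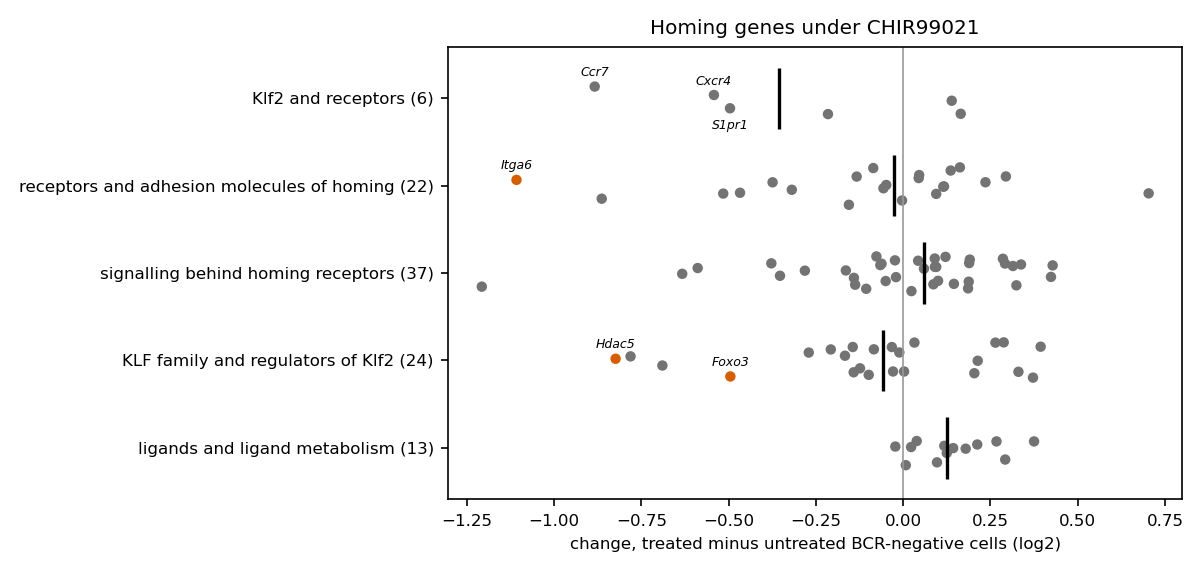
Log2 change of treated against untreated BCR-negative cells for the 6 tested members and the tested genes of 4 lists, with numbers of genes in parentheses, bars at medians and called genes in orange. Itga6, Hdac5 and Foxo3 are the called genes, all below 0, and the member median is -0.36.

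Of 43 signalling genes behind these receptors 37 were tested and 0 were called by limma under CHIR99021, where 1.91% of all genes were called, and 4 had an unadjusted p under 0.05, where 16.6% of all genes had one. The kinase gene Pik3cg, which acts downstream of chemokine receptors, was lowest at -1.21 (adjusted p = 0.127), with -0.65, -1.57 and -1.40 in the 3 tumours. The adaptor Apbb1ip, which links RAP1 to talin at integrins, was at 0.42 (adjusted p = 0.0924) and the GTPase Rhoh at -0.63 (adjusted p = 0.109). Among 20 ligands and enzymes of ligand metabolism 13 were tested and 0 called, and 3 had an unadjusted p under 0.05, against the same 16.6% of all genes. Positive changes were found for 12 of the 13, where 56.7% of all genes had one, and the median was 0.12, against 0.026 over all genes. This count includes genes dimmer than the array medians, such as Plpp1 (2.80 in untreated and 3.09 in treated cells) and Sphk1 (3.12 and 3.25). It also includes very small changes, such as 0.0074 for Ccl19. Sgpp1 and Sgpl1, which break down sphingosine 1-phosphate, were at 0.37 (adjusted p = 0.0938) and 0.27 (adjusted p = 0.294). In the other 5 comparisons limma called 0 genes of each list. For treated against BCR-positive cells, 8 of the 22 receptors, 6 of the 37 signalling genes, 4 of the 24 KLF genes and 3 of the 13 ligand genes had an unadjusted p under 0.05, where 15.6% of all genes had one. For treated against BCR-independent cells these counts were 7, 6, 4 and 3, where 12.3% of all genes had one. They were 4, 5, 4 and 3 for BCR-independent against BCR-positive cells (9.61% of all genes), 2, 2, 1 and 1 for BCR-independent against BCR-negative cells (5.99%) and 1, 1, 0 and 0 for BCR-negative against BCR-positive cells (3.19%).

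Likeness to each member was measured as Pearson's r over the 12 arrays after subtraction of each tumour's mean, as a description over arrays that share 3 tumours. Only protein-coding genes were ranked, without predicted or provisionally named ones. The genes nearest to Klf2 were Phyhip (0.94), Plxdc1 (0.93) and Setd7 (0.89). Slc16a1 (0.94), Sh3pxd2a (0.94) and Foxc1 (0.91) were nearest to S1pr1. Polm (0.97), Carmil1 (0.96) and Kctd14 (0.93) followed Ccr7 most closely, and Ssh3 (0.95), Aftph (0.94) and Rpl36a (0.94) followed Cxcr4. The nearest genes to Itga4 were Arhgef2 (0.96), Aldoa (0.94) and Cep162 (0.94). Those nearest to Itgb7 were Cand2 (0.96), Ndrg2 (0.96) and Gadd45b (0.96), where the array of clone 8 carries most of the spread. Among the members themselves, Klf2 stood at -0.092 with S1pr1 and 0.62 with Itgb7, Ccr7 at 0.57 with Cxcr4 and -0.64 with Itga4. Single arrays of tumour 2567 weigh on the pairs of Klf2 with Itgb7 and of Ccr7 with Itga4. Clone 8 had the highest Klf2 (6.58) and Itgb7 (4.35) of that tumour. Its treated array had the lowest Ccr7 (6.12) and the highest Itga4 (8.38) of the tumour.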

How the data were processed

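The authors deposited log2 signals of 35556 probe sets on 12 arrays. Per the submitters' processing notes, RMA and Affymetrix Power Tools were used, and RMA corrects background, gives all arrays 1 distribution and compresses dim signals. Tool versions were not stated there. The platform annotation pairs 21218 probe sets with a single symbol, 1881 with several and 12457 with none, and symbols were updated by gene ID through RefSeq (GRCm38.p6).

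Probe sets with a single gene that exceeded the 40th percentile of their array on 3 or more arrays were tested, taking per gene the one of highest mean. Group and tumour were fitted over all 12 arrays with limma 3.58.1 in R 4.3.3 (6 residual and 3.41 prior degrees of freedom), with Benjamini-Hochberg adjustment over 12961 genes, and the fit was tested on simulated data. Tumour numbers in the titles pair the arrays. Within a tumour, residual correlations ran from 0.28 to 0.79, across tumours from -0.72 to 0.17, and all 12 arrays matched their own tumour best. Precision is limited by 3 arrays a group. Whether the sorted fractions of a tumour came from 1 culture is not stated, and treatment and culture cannot be told apart.

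Members and lists were chosen with earlier results of these data known. Most named list genes come from those called and the 3 of smallest p in each comparison. Likeness takes the 3 highest r among protein-coding genes, without predicted or provisionally named ones. Alternatives dropped the tumour term, the filter or each tumour in turn, raised the filter to the 60th percentile, added cyclic loess, an intensity trend with robust eBayes or the title mark, averaged probe sets, or fitted 2 groups alone.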

Additional observations from a re-analysis of the deposited data

How the results depend on the processing

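Of 390 member values under the 11 alternatives, 362 kept their direction, 28 turned and 1 was called (Cxcr4 in treated BCR-negative against BCR-independent cells with the title mark as a term, adjusted p = 0.0316). Without the replicate block on tumour, the pairing term, the number of genes called was 0 for BCR-negative against BCR-positive cells, 12 for treated against untreated BCR-negative cells, 0 for BCR-independent against BCR-negative, 7 for treated against BCR-positive, 4 for BCR-independent against BCR-positive and 5 for treated against BCR-independent cells. In the main fit these counts were 1, 248, 1, 104, 11 and 21, with only the 2 groups compared 2, 109, 0, 0, 1 and 1, and with the title mark 2, 32, 0, 8, 12 and 33. Cyclic loess gave 183 for treated against BCR-positive and 37 for treated against BCR-independent cells. With 1 tumour left out the counts were 0 to 0, 1 to 17, 0 to 3, 4 to 19, 1 to 4 and 0 to 12, and fewer arrays enter those fits. The calls of Itga6, Hdac5 and Foxo3 ended without the block (adjusted p = 0.625, 0.216 and 0.306), and that of Foxo3 also with the intensity trend (0.0569) and with only the 2 groups (0.0637).

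With the title mark as a term, 8 member values turned direction. Klf2 was then 0.20 for treated against untreated BCR-negative, 0.41 for BCR-independent against BCR-negative and 0.33 for treated against BCR-positive cells. Itga4 was 0.38 and 0.37 for BCR-independent against BCR-negative and BCR-positive cells. Against BCR-positive cells, S1pr1 was -0.28 in treated and -0.11 in BCR-independent cells, and Ccr7 was -0.077 in BCR-independent cells. The cause was not tested. The mark also moved Itga4 to 0.58 and Itgb7 to 0.46 for treated against untreated BCR-negative cells, and to 0.56 and 0.48 for treated against BCR-positive cells.

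Leaving out 1 tumour at a time turned the following values, none of them called. For BCR-negative against BCR-positive cells the ranges were -0.029 to 0.24 for Klf2, -0.041 to 0.36 for Ccr7, -0.21 to 0.12 for Itga4 and -0.051 to 0.084 for Itgb7. For treated against untreated BCR-negative cells Itga4 ran from -0.17 to 0.38. For BCR-independent against BCR-negative cells the ranges were -0.46 to 0.45 for Klf2, -0.29 to 0.20 for Ccr7 and -0.24 to 0.19 for Itga4. For treated against BCR-positive cells they were -0.13 to 0.48 for S1pr1 and -0.050 to 0.34 for Itga4. For BCR-independent against BCR-positive cells they were -0.21 to 0.42 for Klf2, -0.27 to 0.60 for S1pr1, -0.21 to 0.16 for Ccr7, -0.11 to 0.0084 for Itga4 and -0.0080 to 0.59 for Itgb7. For treated against BCR-independent cells they were -0.50 to 0.16 for Klf2, -0.52 to 0.13 for S1pr1 and -0.47 to 0.17 for Itgb7.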
